A study of Mus musculus with 6 samples.

Results

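Genes of the cell cycle were examined in cultured mouse fetal liver macrophages from wild-type mice and from mice deficient in Ahrr, whose product represses aryl hydrocarbon receptor activity. The set holds 59 genes named from a list of DNA replication and mitosis genes by their symbols, out of 16111 genes with an identifier, and all 59 were found once each. They were divided by textbook role into 26 genes of DNA replication and S phase and 33 genes of G2 phase and mitosis (G2/M). The wild-type group was 3 cultures of C57BL/6 RCC fetal liver cells and the other group 3 cultures of the same strain deficient in Ahrr (AhRR-/-), each from 1 numbered mouse at embryonic day E13.5. All 6 were grown for 5 weeks with 2% GM-CSF, a growth factor for macrophages, and only the non-adherent cells were taken for RNA sequencing (Tru-Seq RNA). No measure of how many cells were dividing was used here.

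A dividing cell copies its DNA in S phase and separates the copies in mitosis. Genes of S phase are switched on by E2F transcription factors once cyclin E and CDK2 are active, and encode the MCM helicase, DNA polymerases, their sliding clamp and the enzymes that make nucleotides. Genes of G2/M are switched on later by the MuvB complex with B-Myb and FOXM1, through a promoter element called the CHR and often through nearby CCAAT boxes bound by NF-Y, and encode cyclin B, mitotic kinases, kinetochore proteins and spindle motors. Macrophages of fetal origin can divide in tissue and in culture, unlike most blood monocytes. Their division depends on growth factors such as GM-CSF.

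The promoters of the 2 groups of genes are shown first, because they bear on the division into S phase and G2/M genes and use no expression value. Windows of 250 bases before to 50 bases after the start were available for 49 of the 59 genes from RefSeq (GRCm38.p6). An E2F element was searched as TTTCCCGC, TTTGGCGC, TTTCGCGC or TTTGCCGC, the CHR as TTTGAA, and the CCAAT box as CCAAT, each on both strands. Matches of 1 element may overlap each other, as the pair of E2F matches in Mcm5 does. An E2F match was present in 9 of 23 S phase genes (39.1%) and in 1 of 26 G2/M genes (3.85%), against 2.60% of all 27025 genes with a window. A CHR match was present in 21 of 26 G2/M genes (80.8%) and in 3 of 23 S phase genes (13.0%), against 20.2% of all genes. CCAAT boxes occurred in 80.8% of the G2/M genes, in 56.5% of the S phase genes and in 41.1% of all genes. Of the G2/M genes 14 held at least 2 of these boxes. A match is a description of the letters and not evidence of a bound factor.

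The 250 bases before the start are printed 5′ to 3′ on the strand of the gene, with every E2F, CHR and CCAAT match in capitals. Both helicase genes below carry E2F matches, and neither passed the test of expression described further on. Mcm5 is on the plus strand at chr8:75109259-75109508 and Mcm6 on the minus strand at chr1:128359706-128359955.
Mcm5: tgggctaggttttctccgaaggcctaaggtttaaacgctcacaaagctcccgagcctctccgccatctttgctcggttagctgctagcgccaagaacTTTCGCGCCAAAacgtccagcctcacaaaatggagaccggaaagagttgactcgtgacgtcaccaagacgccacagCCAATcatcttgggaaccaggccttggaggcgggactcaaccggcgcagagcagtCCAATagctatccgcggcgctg
Mcm6: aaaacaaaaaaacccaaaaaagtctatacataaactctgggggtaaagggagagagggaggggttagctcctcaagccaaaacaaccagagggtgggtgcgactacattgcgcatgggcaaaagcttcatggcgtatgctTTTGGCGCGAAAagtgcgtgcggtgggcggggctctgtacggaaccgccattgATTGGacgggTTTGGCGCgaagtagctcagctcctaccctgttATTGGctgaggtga
The next 4 are G2/M genes with a CHR match. Cdk1 (minus strand, chr10:69352913-69353162) is the 1 G2/M gene with an E2F match as well. Top2a (minus strand, chr11:99024190-99024439), Kif11 (plus strand, chr19:37376132-37376381) and Ube2c (plus strand, chr2:164769679-164769928) had the 3 largest positive fold changes of the set.
Cdk1: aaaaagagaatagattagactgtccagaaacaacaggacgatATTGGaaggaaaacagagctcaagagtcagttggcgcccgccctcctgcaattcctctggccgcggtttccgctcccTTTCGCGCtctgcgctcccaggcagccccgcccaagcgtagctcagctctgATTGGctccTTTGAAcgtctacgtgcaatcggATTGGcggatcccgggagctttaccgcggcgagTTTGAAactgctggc
Top2a: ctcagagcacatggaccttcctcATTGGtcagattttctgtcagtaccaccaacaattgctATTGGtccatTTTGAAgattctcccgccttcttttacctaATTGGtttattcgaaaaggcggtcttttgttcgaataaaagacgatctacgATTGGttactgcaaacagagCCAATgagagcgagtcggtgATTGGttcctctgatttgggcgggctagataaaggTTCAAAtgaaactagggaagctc
Kif11: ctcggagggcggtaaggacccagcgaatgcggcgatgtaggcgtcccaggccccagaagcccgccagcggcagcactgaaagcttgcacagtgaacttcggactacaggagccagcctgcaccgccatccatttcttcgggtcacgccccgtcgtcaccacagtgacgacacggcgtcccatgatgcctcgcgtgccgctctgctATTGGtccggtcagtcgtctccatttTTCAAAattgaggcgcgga
Ube2c: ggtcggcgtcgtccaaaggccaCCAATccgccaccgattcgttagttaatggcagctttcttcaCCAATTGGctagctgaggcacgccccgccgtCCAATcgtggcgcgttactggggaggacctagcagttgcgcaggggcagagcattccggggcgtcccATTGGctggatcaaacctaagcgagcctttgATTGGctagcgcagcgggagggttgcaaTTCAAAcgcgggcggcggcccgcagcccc
The last is Cenpa (plus strand, chr5:30666636-30666885), which went the other way in expression. Its 2 capital stretches are CCAAT boxes on the opposite strand, and its CHR match lies after the start and is not printed.
Cenpa: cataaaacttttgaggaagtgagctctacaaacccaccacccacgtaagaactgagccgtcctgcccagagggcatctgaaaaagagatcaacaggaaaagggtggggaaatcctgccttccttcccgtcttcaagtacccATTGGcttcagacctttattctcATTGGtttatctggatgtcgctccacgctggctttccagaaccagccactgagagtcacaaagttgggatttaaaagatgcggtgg

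The libraries held between 3556106 and 41668336 counts, the lowest in Ahrr-deficient replicate 1 and the highest in Ahrr-deficient replicate 2. A ribosomal RNA gene took 5.28% of the counts of wild-type replicate 2 and at most 0.0679% elsewhere, so levels are given as counts per 1000000 (CPM) of a library total scaled by the TMM method, which corrects for such shares. Ahrr itself had 4.60, 4.74 and 5.21 CPM in wild-type replicates 1, 2 and 3 against 2.23, 2.47 and 1.179 CPM in the Ahrr-deficient replicates, so the groups did not overlap but reads remained (log2 fold change -1.21, SE 0.26 and edgeR adjusted p 0.0151). The deleted stretch of the gene is not given in the labels. All 12 listed macrophage markers were detected and passed the filter on low counts, and their summed level was 61693 to 62732 CPM in wild-type against 46777 to 57748 CPM in Ahrr-deficient libraries, mostly from Chil3 and Lyz2. Of these markers Itgax was called higher (log2 fold change 1.70) and Cd14 and Csf1r lower (-1.66 and -0.65; edgeR adjusted p 6.96e-04, 0.00329 and 0.0304), and the other 9 did not pass. Of 88 markers of 12 other cell types that a liver culture could hold, 22 were among the identified genes. Every feature with at least 10 counts over the 6 libraries carried an identifier, and none was named Kit, Cd34, Myb, Mpo or Elane, defining genes of dividing progenitors and mast or granulocyte precursors. Hdc, the 1 identified mast cell and basophil marker of 10, had 0 counts in each wild-type library. It had 1, 10 and 2 counts in Ahrr-deficient replicates 1, 2 and 3, too few to be tested. The summed level of the 2 identified progenitor markers of 6, Gfi1b and Hoxa9, was 0.176 to 1.09 CPM in wild-type against 1.38 to 2.95 CPM in Ahrr-deficient libraries. The 3 identified erythroid markers of 10 summed to 14.9 to 22.5 CPM in wild-type against 2.75 to 4.81 CPM in Ahrr-deficient libraries, nearly all from Epor. Epor was called lower (edgeR adjusted p 0.00113), as was Itga2b, the 1 identified megakaryocyte marker of 6 (0.0147). The 3 identified granulocyte markers of 11 summed to 1.502 to 2.98 and 0.688 to 1.67 CPM. The 3 identified dendritic cell markers of 7 summed to 56.4 to 67.8 and 69.9 to 91.3 CPM, mostly from Clec9a, which was called higher (edgeR adjusted p 0.0256). The part of such cells in the results was not tested.

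All 59 cell-cycle genes had enough counts to be tested, with a median total of 716 counts over the 6 libraries and a range of 144 to 8579. Depth was uneven: the median gene of the set had 378 counts in Ahrr-deficient replicate 2 and 21 in Ahrr-deficient replicate 1, where 29 of the 59 had fewer than 20. The test was edgeR's quasi-likelihood test, fitted on all 11408 genes that passed the filter, with Benjamini-Hochberg adjusted p-values. A gene is called here when its adjusted p is under 0.05. Exons of another gene overlap those of 15 of the 59 genes on the opposite strand, among them the called genes Nusap1, Prc1 and Ube2c, and the annotated small genes Gm23451 and Gm23634 lie on the same strand within Top2a and Stmn1. The labels number the mice within each group and do not say whether fetuses shared a litter.

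Some of the 33 listed G2/M genes were called higher in Ahrr-deficient macrophages, and most of the listed S phase genes did not pass the threshold. Of 33 G2/M genes 11 were called higher and 2 lower, with a median log2 fold change of 0.68. The number called higher, and the share of all genes, changed when 1 library was left out. The same test called 0 of the 33 higher without wild-type replicate 1 (2.86% of all genes). In that fit 12 of the 33 were higher at an unadjusted p under 0.05, as were 1431 of all 11427 genes tested. The test called 2 without wild-type replicate 2 (3.72%) and 7 without wild-type replicate 3 (4.17%). Without Ahrr-deficient replicates 1, 2 and 3 it called 19 (16%), 3 (4.1%) and 3 (5.04%). Cenpa was called lower in all 6 of these fits. With the replicate number as a block the test called 5 higher (5.84%). Of 26 S phase genes 2 were called higher and 0 lower, with a median log2 fold change of 0.18. At an unadjusted edgeR p under 0.05 there were 25 G2/M and 6 S phase genes (35.8% of all genes). DESeq2 called 9 G2/M genes and 2 S phase genes, Ccne1 and Uhrf1, higher (7.88% of all genes). Across all tested genes 19.6% were called, 9.62% higher and 9.95% lower, with a median log2 fold change of 0.01. The share called higher was therefore 33.3% in G2/M, against 9.62% of all genes, and 7.69% in S phase, which is near the background. The 87 other G2/M genes described at the end had a share of 6.90%, and none of these differences was tested. The fold change was above 0 for 52 of the 59 genes, whether called or not, against 50.9% of all tested genes. The fitted difference between the S phase and G2/M genes was not tested, since genes of a list are not replicates. In bulk RNA a larger share of dividing cells and more RNA per dividing cell cannot be told apart.

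**Figure D1:**
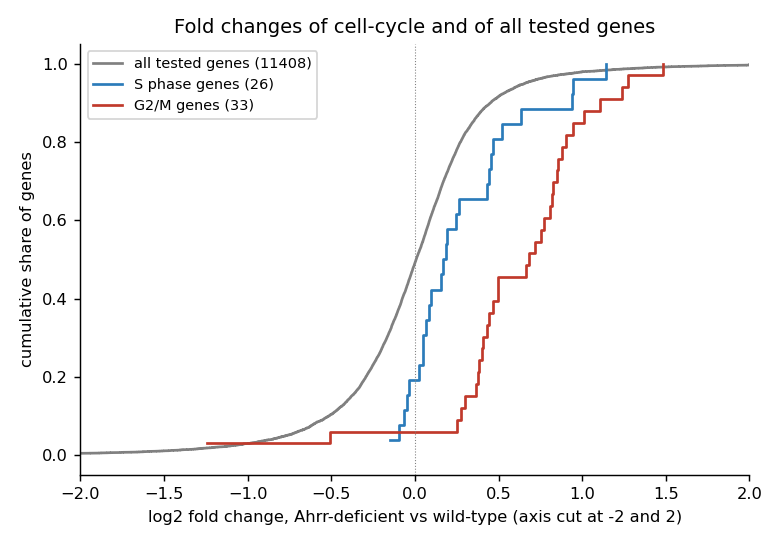
Cumulative share of genes (vertical axis) by log2 fold change of Ahrr-deficient against wild-type (horizontal axis, cut at -2 and 2) for all 11408 tested genes in grey, the 26 S phase genes in blue and the 33 G2/M genes in red. The red curve lies to the right of the others over most of its range but not at its foot, where Cenpa and Stmn1 lie below 0, or at its top, where it ends at 1.48 (Kif11) while the grey curve goes on, with medians of 0.68 for G2/M, 0.18 for S phase and 0.01 for all tested genes.

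**Figure D2:**
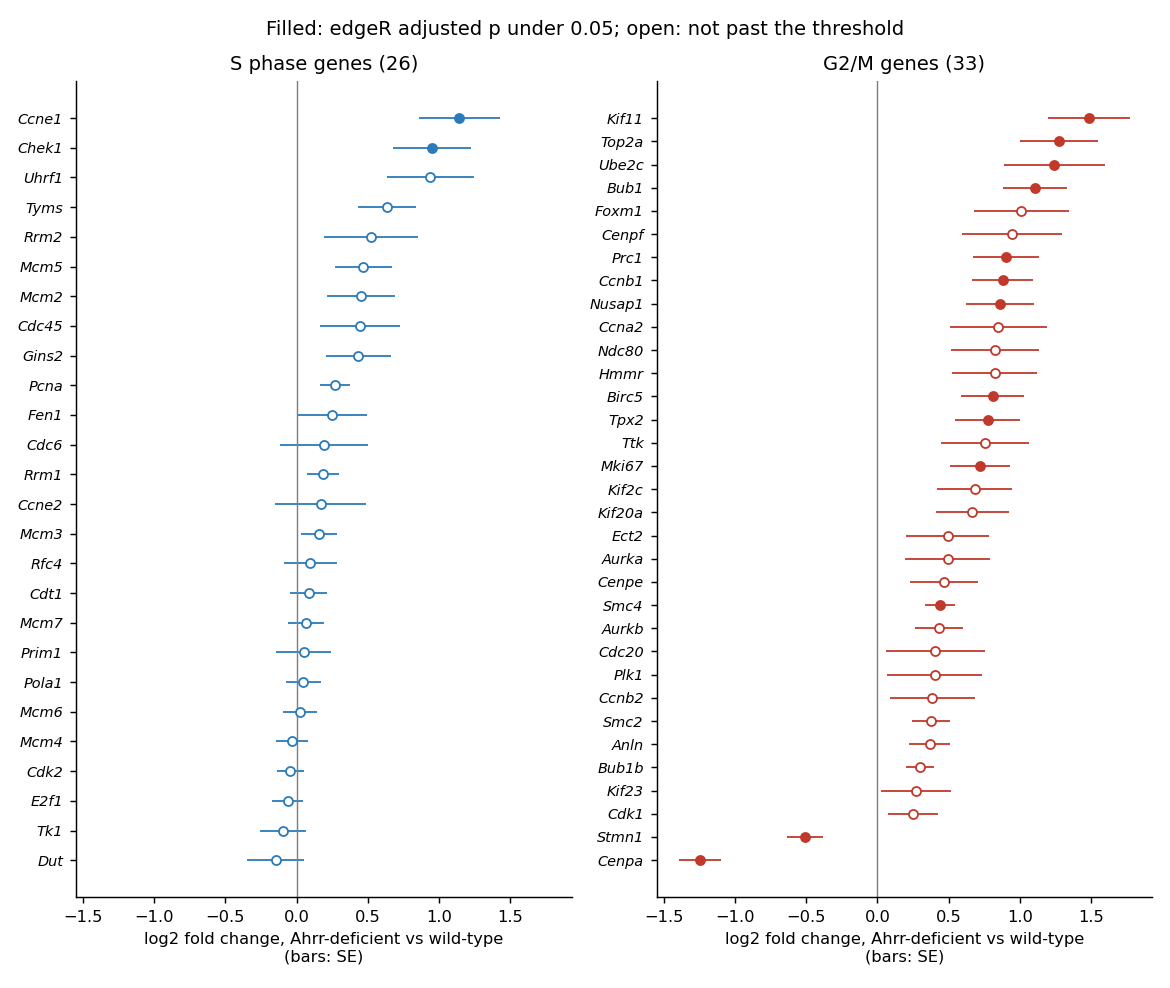
Log2 fold change with its standard error for each S phase gene (left, blue) and each G2/M gene (right, red), ordered by size, with filled points for genes past an edgeR adjusted p of 0.05. In S phase 2 of 26 points are filled, and in G2/M 13 of 33 are filled, of which Cenpa and Stmn1 lie below 0.

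The G1/S step was represented by cyclin E and its kinase. Ccne1, which encodes cyclin E1, had 2.41, 1.404 and 1.78 CPM in wild-type replicates 1, 2 and 3 against 2.51, 5.31 and 4.22 CPM in the Ahrr-deficient replicates. All Ahrr-deficient libraries were higher, but replicate 1 lay just above the highest wild-type library. The log2 fold change was 1.14 (SE 0.29 and edgeR adjusted p 0.0252), the largest among the S phase genes. The call held in 8 of 14 alternatives. Its partner Cdk2 had a mean of 52.4 ± 4.02 CPM (SD, n = 3) in wild-type libraries and 51.2 ± 3.08 CPM in the others, and cyclin E2 (Ccne2) had 2.14 ± 0.966 and 2.24 ± 0.756 CPM (SD, n = 3). Neither passed the test (edgeR adjusted p 0.772 and 0.739). E2f1, the transcription factor that cyclin E activity releases, had 31.6, 28.6 and 26.3 CPM in wild-type against 24.8, 28.0 and 29.8 CPM in Ahrr-deficient libraries, which overlapped throughout. Chek1, the kinase that halts the cycle when forks stall, was the other S phase gene called higher. It had 1.09, 0.702 and 0.960 CPM in wild-type against 1.95, 2.05 and 1.57 CPM in Ahrr-deficient libraries, without overlap. Its log2 fold change was 0.95 (SE 0.27 and edgeR adjusted p 0.0411), from 147 counts in all. The call held in 4 of 13 alternatives and was lost with DESeq2 (adjusted p 0.208, range over alternatives 0.0326 to 0.23), with no filter and in 5 of the 6 fits that left out 1 library. Uhrf1, which carries DNA methylation to new strands, had a log2 fold change of similar size, 0.94 (SE 0.30), and did not pass (edgeR adjusted p 0.0596).

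The MCM helicase unwinds DNA at each fork and is built from the products of Mcm2 to Mcm7. Of the 10 licensing and helicase genes 0 were called by edgeR, 0 by DESeq2 and 0 by limma-voom. These tools called 19.6%, 16.1% and 24.1% of all tested genes, so 0 of 10 says little. An unadjusted edgeR p under 0.05 was found for 1 of the 10, against 35.8% of all genes. Mcm2 had 15.8, 11.4 and 15.9 CPM in wild-type against 10.3, 22.5 and 23.2 CPM in Ahrr-deficient libraries. The last group thus held both the lowest and the highest values, with Ahrr-deficient replicate 1 below every wild-type library. Mcm5 had 12.2, 10.7 and 17.97 CPM in wild-type against 15.0, 17.7 and 22.4 CPM in Ahrr-deficient libraries, with a log2 fold change of 0.47 (SE 0.20 and edgeR adjusted p 0.129). Mcm3 had 42.8, 35.1 and 42.8 CPM against 37.6, 46.8 and 49.02 CPM. Both pairs of groups overlapped.

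The other subunits had the smallest fold changes of the helicase. Mcm4 had 37.1, 37.9 and 44.3 CPM in wild-type against 35.9, 36.7 and 43.2 CPM in Ahrr-deficient libraries. Mcm6 had 30.4, 35.5 and 34.3 CPM against 28.4, 33.2 and 38.1 CPM. Mcm7 had 22.0, 20.01 and 24.8 CPM against 19.8, 23.4 and 25.8 CPM, and exons of Ap4m1 and Cops6 overlap it on the opposite strand. None of these 3 pairs of groups was apart. Fold changes of these 3 subunits lay between -0.03 and 0.07 on the log2 scale, with standard errors of 0.11 to 0.12. Cdc6 and Cdt1, which load the helicase, had log2 fold changes of 0.19 and 0.09. Cdc45 and Gins2, which complete the active helicase, had 0.44 and 0.43 with standard errors of 0.28 and 0.23, and did not pass.

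At the fork itself edgeR, DESeq2 and limma-voom each called 0 of 5 genes, against 19.6%, 16.1% and 24.1% of all tested genes. An unadjusted edgeR p under 0.05 was found for 1 of the 5, against 35.8% of all genes. That gene was Pcna, the sliding clamp of the polymerases, with 62.8, 61.1 and 60.3 CPM in wild-type against 61.8, 76.9 and 80.8 CPM in Ahrr-deficient libraries. Ahrr-deficient replicates 2 and 3 lay above every wild-type library and replicate 1 lay among them, giving a log2 fold change of 0.27 (SE 0.10 and edgeR adjusted p 0.102). Pola1 and Prim1, of the polymerase that starts new strands, each had a log2 fold change of 0.05, with standard errors of 0.12 and 0.19. The clamp loader gene Rfc4 and the flap nuclease gene Fen1 had 0.10 and 0.25. Of the 5 genes of nucleotide supply edgeR called 0, with 1 at an unadjusted p under 0.05, DESeq2 called 0 and limma-voom called 1. The shares of all genes are those given for the fork, and with 5 genes such counts say little. The large subunit of ribonucleotide reductase, Rrm1, had 32.1, 32.6 and 37.2 CPM in wild-type against 32.9, 39.1 and 42.0 CPM in Ahrr-deficient libraries. Rrm2, the subunit that sets the enzyme's activity in S phase, had 5.78, 4.56 and 7.54 CPM against 3.06, 8.72 and 11.7 CPM. Replicate 1 was again the lowest and replicate 3 the highest of the Ahrr-deficient libraries. Tyms, which makes thymidylate, came nearest to the threshold in S phase with a log2 fold change of 0.63 (SE 0.20 and edgeR adjusted p 0.0573), while the salvage kinase gene Tk1 and the dUTPase gene Dut had -0.10 and -0.15.

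**Figure D3:**
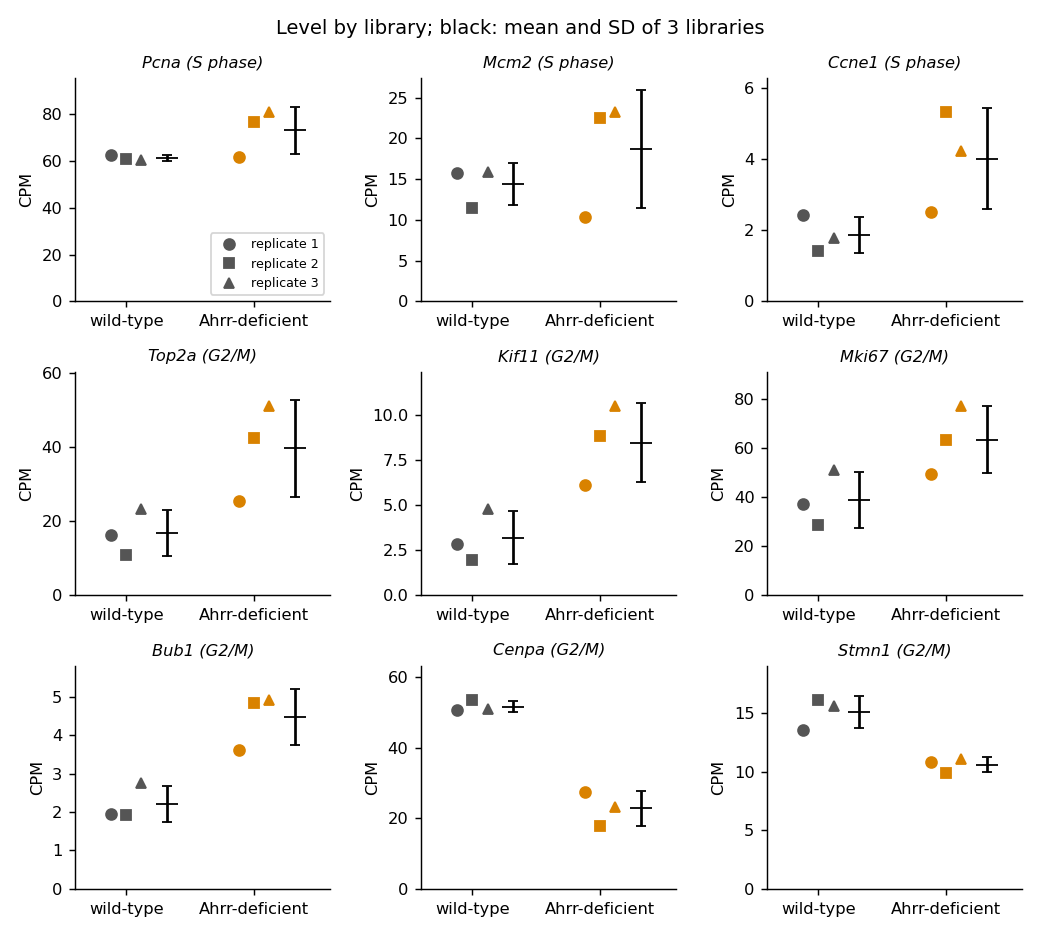
Level in CPM (vertical axis, from 0) of 3 S phase and 6 G2/M genes in each wild-type library (grey) and each Ahrr-deficient library (orange), with a symbol per replicate number and the mean ± SD of 3 libraries in black. Kif11, Top2a, Bub1 and the S phase gene Ccne1 are higher and Cenpa and Stmn1 lower in all 3 Ahrr-deficient libraries. Pcna and Mcm2 are higher only in replicates 2 and 3 of that group.

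Among the genes that drive mitosis, the largest rises were those of Kif11 and Top2a, a spindle gene and a chromosome gene. Kif11 (chromosome 19, 37376403 to 37421859, GRCm38), the motor that pushes spindle poles apart, had 2.82, 1.93 and 4.8 CPM in wild-type against 6.13, 8.84 and 10.5 CPM in Ahrr-deficient libraries. The groups did not overlap, and the log2 fold change was 1.48 (SE 0.29 and edgeR adjusted p 0.00972), a 2.80-fold rise. Nusap1 and Tpx2, which stabilise spindle microtubules, rose by log2 fold changes of 0.86 and 0.77 (edgeR adjusted p 0.0365 and 0.0438). Nusap1 had 4.14, 4.92 and 5.35 CPM in wild-type against 5.01, 8.47 and 10.5 CPM in Ahrr-deficient libraries, with Ahrr-deficient replicate 1 inside the wild-type range. Exons of Oip5 overlap Nusap1 on the opposite strand. The call held in 8 of 15 alternatives for Nusap1 and in 5 of 15 for Tpx2, which was lost with upper-quartile scaling, with no filter and with a minimum mean of 50 counts. Kif2c and Hmmr did not pass (edgeR adjusted p 0.0997 and 0.0832).

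Genes of chromosome structure were called in 3 of 4 cases, all higher, where 9.62% of all tested genes were called higher. Top2a (chromosome 11, 98992943 to 99024189), the topoisomerase that untangles sister chromatids, had 16.3, 10.9 and 23.2 CPM in wild-type against 25.3, 42.4 and 51.0 CPM in Ahrr-deficient libraries. The lowest Ahrr-deficient value was close to the highest wild-type value, and the log2 fold change was 1.27 (SE 0.27 and edgeR adjusted p 0.0149). Mki67 (chromosome 7, 135689784 to 135716361), whose protein coats mitotic chromosomes and is the usual marker of dividing cells, had 37.2, 28.4 and 50.9 CPM against 49.6, 63.4 and 77.0 CPM. These groups overlapped, since wild-type replicate 3 exceeded Ahrr-deficient replicate 1, and the log2 fold change was 0.72 (SE 0.21 and edgeR adjusted p 0.0411). The condensin gene Smc4 had 78.4, 78.6 and 82.4 CPM in wild-type against 128, 99.98 and 99.8 CPM in Ahrr-deficient libraries. Unlike most of the set it was highest in Ahrr-deficient replicate 1, and its log2 fold change was 0.44 (SE 0.11 and edgeR adjusted p 0.0222). The calls of Top2a and Smc4 each held in 12 of 15 alternatives and that of Mki67 in 9 of 15. Smc2, the condensin partner of Smc4, had a log2 fold change of 0.38 (SE 0.13) and did not pass (edgeR adjusted p 0.0774).

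Of 8 kinetochore and checkpoint genes 2 were called higher and 1 lower, against 9.62% and 9.95% of all tested genes. Bub1 (chromosome 2, 127801122 to 127831865), a kinase of the spindle checkpoint, had 1.96, 1.93 and 2.74 CPM in wild-type against 3.62, 4.85 and 4.91 CPM in Ahrr-deficient libraries. It was 2.15-fold higher without overlap of the groups (log2 fold change 1.11, SE 0.22 and edgeR adjusted p 0.0113). Birc5, which encodes survivin of the chromosomal passenger complex, had 2.96, 2.98 and 3.57 CPM against 4.18, 5.05 and 6.88 CPM, also without overlap (log2 fold change 0.81, SE 0.22 and edgeR adjusted p 0.0343). The call of Bub1 held in 12 of 15 alternatives and that of Birc5 in 7 of 15. Bub1b, the partner of Bub1 in the checkpoint, lay higher in all 3 Ahrr-deficient libraries at 71.0, 79.1 and 68.4 CPM against 54.4, 60.4 and 64.3 CPM, but missed the threshold (edgeR adjusted p 0.0613). Cenpe, Cenpf, Ndc80 and Ttk had log2 fold changes of 0.47 to 0.95 with edgeR adjusted p-values of 0.0873 to 0.195.

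Cenpa went against most of the set, in which 7 of the 59 genes had a fold change below 0. It encodes the histone H3 variant that marks the centromere, and lies on chromosome 5 from 30666777 to 30674830 with no annotated exon of another gene over its own. It had 50.7, 53.5 and 50.9 CPM in wild-type libraries against 27.6, 17.7 and 23.2 CPM in Ahrr-deficient libraries, so the wild-type values lay close together and every Ahrr-deficient value lay below them. The log2 fold change was -1.24 (SE 0.15 and edgeR adjusted p 0.00217), the smallest p of the 59 genes. Its call was kept in all 15 alternative analyses, with log2 fold changes from -1.38 to -1.06. Stmn1, which encodes stathmin, a protein that destabilises microtubules, was the other gene called lower. It had 13.6, 16.1 and 15.6 CPM in wild-type against 10.9, 9.92 and 11.1 CPM in Ahrr-deficient libraries, a log2 fold change of -0.51 (SE 0.13 and edgeR adjusted p 0.0240). Its groups did not overlap, although its call held in only 7 of 15 alternatives. Across all tested genes 9.95% were called lower.

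Cyclin B1 was the 1 gene called among the 8 of mitotic cyclins, kinases and their transcription factor, against 19.6% of all tested genes. Ccnb1, which activates CDK1 for entry into mitosis, had 2.59, 1.76 and 2.33 CPM in wild-type against 3.90, 4.73 and 3.83 CPM in Ahrr-deficient libraries, with no overlap (log2 fold change 0.88, SE 0.22 and edgeR adjusted p 0.0234). The call held in 7 of 15 alternatives. The catalytic partner Cdk1 had 12.3, 8.25 and 11.9 CPM against 10.9, 12.8 and 15.2 CPM, with overlap and a log2 fold change of 0.25 (SE 0.17 and edgeR adjusted p 0.336). Foxm1, the transcription factor of G2/M genes, had a log2 fold change of 1.01 (SE 0.33) that missed the threshold (edgeR adjusted p 0.0630), and Ccna2 had 0.85 (SE 0.34 and edgeR adjusted p 0.109). Ccnb2, Plk1, Aurka and Aurkb had log2 fold changes of 0.38 to 0.49, none of them past it. Named pseudogenes of Ccnb1, Ccnb2, Pcna and Tyms are annotated, so the counts of these 4 genes could be split with copies.

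At the end of mitosis, 1 of 5 cytokinesis genes and 1 of 2 partners of the anaphase-promoting complex were called higher (9.62% of all tested genes). Prc1, which bundles the central spindle, had 5.37, 4.56 and 7.54 CPM in wild-type against 6.96, 11.6 and 12.2 CPM in Ahrr-deficient libraries (log2 fold change 0.90, SE 0.23 and edgeR adjusted p 0.0264). Wild-type replicate 3 exceeded Ahrr-deficient replicate 1. Anln, the actin binder of the cleavage furrow, lay higher in all 3 Ahrr-deficient libraries without passing (log2 fold change 0.37, edgeR adjusted p 0.106). Kif20a, Kif23 and Ect2 had 0.67, 0.27 and 0.49. Ube2c, the enzyme that starts ubiquitin chains for the complex, had 1.68, 1.05 and 2.88 CPM against 2.51, 4.04 and 5.99 CPM (log2 fold change 1.24, SE 0.35 and edgeR adjusted p 0.0394). An exon of Tnnc2 overlaps it on the opposite strand. The call of Prc1 held in 9 of 15 alternatives and that of Ube2c in 9 of 14. Cdc20, which brings substrates to the same complex, had 0.41 (SE 0.35 and edgeR adjusted p 0.436) and ranged from 1.67 to 6.97 CPM among the Ahrr-deficient libraries alone.

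Within G2/M, genes with a CHR match did not have the larger median fold change. The 21 G2/M genes with a CHR match had a median log2 fold change of 0.49 and 5 of them were called higher. The 5 without a match, Birc5, Bub1, Ccnb1, Cenpe and Nusap1, had a median of 0.86 and 4 were called higher. Of all 33 G2/M genes 33.3% were called higher, and of all tested genes 9.62%. Among S phase genes the 9 with an E2F match had a median of 0.09 and the 14 without it 0.26. These are descriptions of few genes and carry no test.

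Levels of the genes also moved together between libraries of 1 genotype. Ahrr-deficient replicate 1 was the lowest of its group for 46 of the 59 genes and replicate 3 the highest for 44. In wild-type, replicate 2 was the lowest for 38 and replicate 3 the highest for 43. Relative to the wild-type mean of each gene, on log2(CPM + 0.5), the median G2/M gene stood at -0.05, -0.24 and 0.27 in wild-type replicates 1, 2 and 3 and at 0.17, 0.58 and 0.78 in the Ahrr-deficient replicates. Ahrr-deficient replicate 1 therefore lay below wild-type replicate 3. The median S phase gene stood at -0.0048, -0.14 and 0.13 in wild-type and at -0.05, 0.23 and 0.30 in Ahrr-deficient libraries. For all tested genes these medians lay between 0.00 and 0.01. Deviations from the group mean had median pairwise Pearson correlations of 0.72 among G2/M genes, 0.54 among S phase genes and 0.60 between the phases. They were taken across the 6 libraries, a description over libraries that every gene shares. Neither these correlations nor the counts of lowest and highest libraries were computed for all tested genes. Whether they are particular to cell-cycle genes was therefore not tested. The library with the lowest levels in the Ahrr-deficient group was also the shallowest, and the lowest wild-type library was the one with ribosomal RNA. The part of depth or ribosomal RNA in these levels was not tested.

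**Figure D4:**
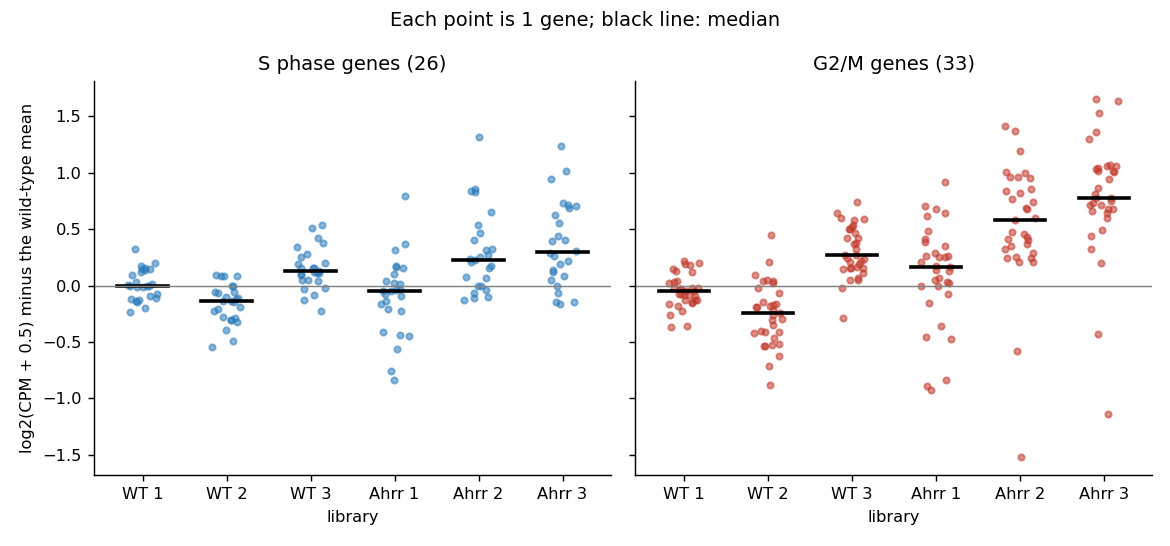
Each point is the level of 1 gene in 1 library as log2(CPM + 0.5) minus the mean of the 3 wild-type libraries (vertical axis), for S phase genes (left) and G2/M genes (right), with the median as a black line. WT 1 to 3 and Ahrr 1 to 3 on the horizontal axis are wild-type and Ahrr-deficient replicates, and the G2/M median of Ahrr 1 (0.17) lies below that of WT 3 (0.27).

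The groups were apart entirely for 13 of the 59 genes, 11 with all Ahrr-deficient libraries above and 2 below. Over all tested genes the groups were apart for 38.8%, with 19.2% above and 19.6% below. For the whole set the shortfall against all genes lay in the lower direction, with 2 of 59 genes, and the 11 of 59 above were near the 19.2%. By phase, the groups were apart above for 9 of 33 G2/M genes and 2 of 26 S phase genes. The S phase share was thus below that of all genes in the upper direction too. The number of calls by the same edgeR test changed with single libraries. Without Ahrr-deficient replicate 1, 26 genes were called higher, 19 in G2/M and 7 in S phase (16% of all genes). Without wild-type replicate 1, 0 were called higher (2.86% of all genes). In that fit 15 were higher at an unadjusted p under 0.05, as were 1431 of all 11427 genes tested. Without wild-type replicate 2 there were 2 called higher (3.72%). Without wild-type replicate 3 there were 8 (4.17%), without Ahrr-deficient replicate 2 there were 3 (4.1%), and without Ahrr-deficient replicate 3 there were 3 (5.04%). Without both wild-type replicate 2 and Ahrr-deficient replicate 1 there were 21 (13% of all genes), a choice made after seeing the data. Called in either direction were 1, 3 and 9 cell-cycle genes without wild-type replicates 1, 2 and 3 (6.07%, 8.15% and 9.35% of all genes). Without Ahrr-deficient replicates 1, 2 and 3 they were 28, 4 and 4 (32.6%, 8.31% and 10.3%). The median log2 fold change of the G2/M genes stayed between 0.55 and 0.78 in the fits that left out 1 library, and that of the S phase genes between 0.08 and 0.25. The most stable of the genes called higher was Kif11, past the threshold in 14 of 15 alternatives and lost without wild-type replicate 1 (edgeR adjusted p 0.0703). Its adjusted p ranged from 1.41e-04 to 0.0703 over all alternatives and tools. The count of genes called higher was also taken under other settings. It was 13 with RLE scaling (9.45% of all genes), 12 with upper-quartile scaling (8.18%), 11 with no filter on low counts (6.36%) and 10 with a filter of a mean of at least 50 counts (9.58%). It was 20 with limma-voom (11.6%, and 24.1% in either direction), 5 with the replicate number as a block (5.84%) and 3 with every library thinned to the smallest total (5.8%).

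**Figure D5:**
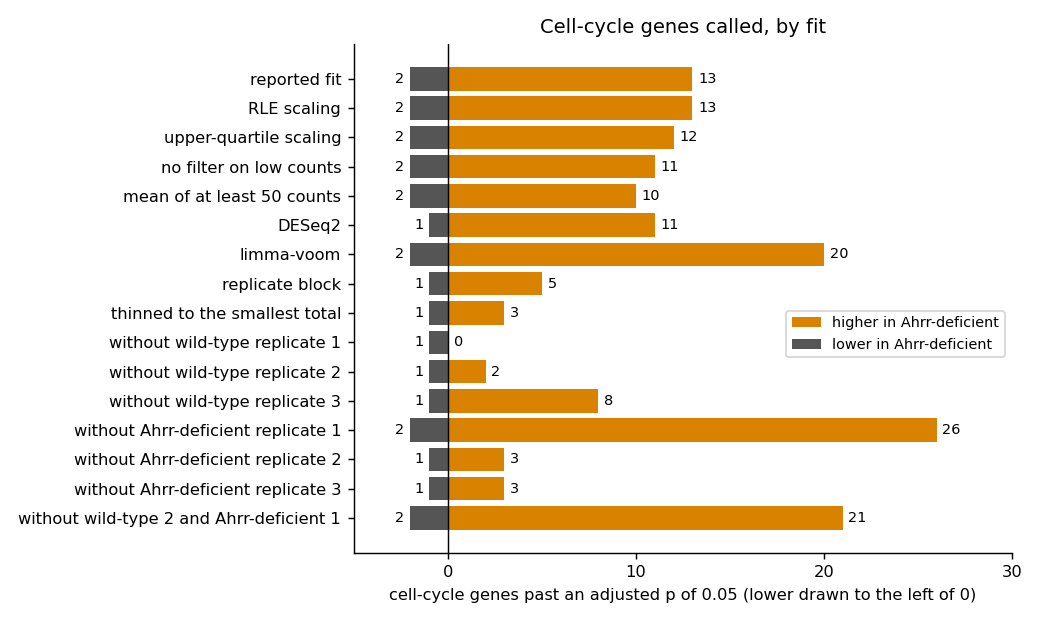
Number of the 59 cell-cycle genes past an adjusted p of 0.05 in each fit (one bar per fit), with genes higher in Ahrr-deficient cells to the right of 0 and lower ones to the left. The number called higher runs from 0 without wild-type replicate 1 to 26 without Ahrr-deficient replicate 1, against 13 in the reported fit.

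Beyond these genes, 181 others of the same pathways were listed, of which 164 were tested, 11 were called higher and 7 lower. This share of 10.98% was below the 19.6% of all tested genes. Of 65 tested genes of replication and E2F control 3 rose and 2 fell. Cdc7 and Dbf4, the kinase and its activator that fire replication origins, rose by log2 fold changes of 0.61 (SE 0.18) and 0.54 (SE 0.14), with edgeR adjusted p-values of 0.0455 and 0.0301. Tfdp1, the DNA-binding partner of E2F, rose by 0.33 (edgeR adjusted p 0.0389). Pold4 and Rfc5, small subunits of polymerase delta and of the clamp loader, fell by 0.73 and 0.63 on the log2 scale (edgeR adjusted p 0.00843 and 0.00957). Exons of Wsb2 overlap Rfc5 on the opposite strand.

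Of 87 other G2/M genes tested, 6 were called higher and 2 lower, with a median log2 fold change of 0.26. The shares were 6.90% higher, below the 9.62% of all tested genes, and 9.20% called, below 19.6%. The fold change was above 0 for 72 of the 87, whether called or not, against 50.9% of all tested genes. The 4 rises with the smallest p were those of Cdca5 (sororin, which protects cohesion), Ncapg2 (condensin II), Knl1 (a kinetochore scaffold) and Pbk (a mitotic kinase). Their log2 fold changes were 0.90 (SE 0.19), 0.68 (SE 0.16), 0.93 (SE 0.24) and 1.54 (SE 0.41), with edgeR adjusted p-values of 0.0135, 0.0225, 0.0268 and 0.0309. Anapc13, a subunit of the anaphase-promoting complex, and Pttg1, the securin it degrades, fell by 0.68 and 0.61 on the log2 scale (edgeR adjusted p 0.00622 and 0.0192). An exon of Cep63 overlaps Anapc13 on the opposite strand. The 14 subunits and partners of that complex had a median log2 fold change of -0.01.

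Among regulators of the step from G1 phase into the cycle, 12 D cyclins, CDK inhibitors and Myc were tested, of which 2 rose, 3 fell and 7 did not pass. Of all tested genes 9.62% were called higher and 9.95% lower. Ccnd2, which encodes cyclin D2, rose from 207 ± 26.7 to 537 ± 114 CPM (SD, n = 3; edgeR adjusted p 0.00228), and Myc from 21.5 ± 4.60 to 113 ± 44.5 CPM (SD, n = 3; edgeR adjusted p 0.00184). The inhibitor genes Cdkn1a, Cdkn1b and Cdkn2c, of p21, p27 and p18, fell by 0.83, 0.72 and 0.60 on the log2 scale (edgeR adjusted p 0.00374, 0.0205 and 0.0112). Genes annotated on the opposite strand overlap exons of Ccnd2 and Cdkn1a.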

How the data were processed

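Per the file headers, the authors deposited raw counts per feature for each library, without identifiers, and a normalized signal per gene, with identifiers. Per the submitters' processing notes, CASAVA 1.8.2, fastp 0.20.0, STAR 2.7.10b, SAMtools 1.16.1, R 4.3.1, DESeq2 1.40.2 and mm10 were used, with no order; the counting program, annotation and use of strand are not given in the sources used here. Each deposited signal value was a whole count divided by 1 size factor per library (100% of values, tolerance 1e-04), and the counts recovered in this way equalled those of the 16111 raw features with at least 10 counts. Features without an identifier held at most 0.0511% of a library and entered its total, which ranged from 3556106 to 41668336.

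Groups come from the sample titles, with 3 libraries each. Counts were tested with edgeR 4.0.16 in R 4.3.3 (quasi-likelihood, TMM factors of 0.904 to 1.04, filterByExpr, genotype as the only term, two-sided, Benjamini-Hochberg over 11408 genes, threshold 0.05), which was tested on simulated data first. Standard errors come from the fold change and the F statistic. P-values set the difference between genotypes against the spread between these cultures, which was estimated partly from all tested genes. Coordinates and overlaps are from GENCODE mouse release 21 (GRCm38), matched by identifier for 16088 of 16111 genes, and promoters from RefSeq. Without strand, reads of overlapping genes on opposite strands cannot be told apart. Reads carry no molecular identifiers.

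Per-library values are given for genes past the threshold, at most 12 per phase by p, and for a fixed group of landmark genes (Pcna, Mcm2 to Mcm7, Rrm1, Rrm2, Mki67, Top2a, Cdk1, Ccnb1, E2f1). Of the other pathway genes, the 4 with the smallest p in each direction and phase are named. Genes, lists and alternatives were chosen with earlier results of these data known. The alternatives were RLE and upper-quartile scaling, DESeq2 1.42.0, limma-voom (limma 3.58.1), no filter, a minimum mean of 50 counts, the replicate number as a block, thinning to the smallest total and each library left out. Tables and plots used Python 3.11.15, pandas 2.3.3 and matplotlib 3.10.9.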

Additional observations from a re-analysis of the deposited data

How the results depend on the processing

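The 15 alternatives gave 1005 values, of which 805 had the sign and call of the reported fit or differed little from it. For a count, that meant a change of at most 1.5 times. The median log2 fold changes of both phases kept their sign under all 15, and moved by less than 0.18 in S phase and 0.31 in G2/M. Those limits are the larger within-group SD of the library medians. In S phase the limit is as large as the median itself, so staying within it says little. None of the 221 recomputed fold changes of called cell-cycle genes changed sign, but 83 of them no longer passed the threshold. The reported fit called 15 cell-cycle genes (13 higher, 2 lower; 2 S phase, 13 G2/M), 18 other pathway genes and 2232 genes in all.

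Both no filter on low counts and a mean of at least 50 counts left 1 S phase call. DESeq2 left 1 gene called lower. Limma-voom called 20 higher, 4 in S phase, and 29 other pathway genes. Thinning every library to the smallest total left 1198 calls in all, 4 cell-cycle genes (3 higher, 1 lower; 0 S phase, 4 G2/M) and 9 pathway genes. With the replicate number as a block there were 1390 calls in all, 6 cell-cycle genes (5 higher, 1 lower; 0 S phase, 6 G2/M) and 10 pathway genes. Libraries with the same number did not pair, with correlations of their deviations of -0.17, 0.071 and 0.13. Leaving out each library in turn gave 694 to 3857 calls in all, 1 to 28 cell-cycle genes, 0 to 26 higher, 1 to 2 lower, 0 to 7 in S phase, 1 to 21 in G2/M and 6 to 50 pathway genes. The lowest counts came without wild-type replicate 1 and the highest without Ahrr-deficient replicate 1. Leaving out wild-type replicate 2 and Ahrr-deficient replicate 1 together, an alternative chosen after seeing the data, gave 23 cell-cycle genes, 21 higher, 5 in S phase, and 36 pathway genes.

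Signs changed in 21 of 870 recomputed fold changes, in 10 genes that were not called. On the log2 scale Mcm6 was -0.0074 with upper-quartile scaling, -0.010 with the replicate block and -0.081 after thinning. After thinning E2f1 was 0.057, Mcm4 0.0072, Prim1 -0.16, Dut 0.0055 and Aurka -0.29. Dut was 0.028 without the pair of libraries. With each library left out in turn, Mcm6 ranged from -0.090 to 0.091, E2f1 from -0.13 to 0.018, Mcm4 from -0.13 to 0.041, Prim1 from -0.10 to 0.17, Ccne2 from -0.0070 to 0.42, Cdk2 from -0.091 to 0.0057, Tk1 from -0.20 to 0.045 and Mcm7 from -0.024 to 0.13. Thinning and leaving out libraries use fewer counts or samples; otherwise the cause was not tested. The smallest library limits what low genes can show.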
